A study of Mus musculus with 2 samples.

Results

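The Fos, Jun and Egr genes encode transcription factors of the immediate early response, and here their RNA was followed in neural crest descendants sorted from mouse hearts at E14.5. The set held 10 genes, chosen by symbol as the Fos family (Fos, Fosb, Fosl1, Fosl2), the Jun family (Jun, Junb, Jund) and 3 Egr genes (Egr1, Egr2, Egr3). All 10 were measured, out of 19938 genes on the array. Each was represented by a single transcript cluster, the array's unit for 1 gene model, that was annotated to that symbol alone, so no second cluster of the same gene was at hand to compare.

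The study set Adam19-/-; Wnt1-Cre; R26tdTomato/+ cells beside Adam19+/+; Wnt1-Cre; R26tdTomato/+ cells, both on a C57BL/6 background, with 1 array (n = 1) per genotype. Both groups therefore carried the Cre driver and 1 copy of the reporter. The driver is active in the neural crest, so tdTomato marked crest descendants in the heart and not 1 cell type. Embryonic hearts were digested with 0.2% collagenase, the suspension was strained, and tdTomato-positive cells were sorted for RNA. No source used here gives the number of embryos pooled, the time between dissection and lysis, or the temperature of digestion. No undigested heart was analysed here, so expression in the embryo and expression started by the digestion cannot be told apart in either sort.

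Immediate early genes are transcribed within minutes of a stimulus, without new protein synthesis. Kinases of the MAP kinase family act on factors already bound at their promoters, chiefly serum response factor with its ELK partners and CREB. Fos proteins pair with Jun proteins to form AP-1, which binds the sequence TGANTCA, whereas Egr proteins are zinc finger factors that bind GC-rich sites. Enzymatic dissociation of a tissue is itself a known stimulus of these genes. In the neural crest lineage Egr2, also called Krox20, has a separate role as a factor of Schwann cells and myelination.

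The sequences just upstream of 4 members are shown because immediate early genes are known to be switched on through elements near their starts, and because these 4 include 3 of the 4 brightest clusters and the largest difference of the set. They are RefSeq promoter windows of the GRCm38.p6 mouse assembly, from 250 bases before to 50 bases after an annotated start. Windows were found for 7 of the 10 members. Capitals mark every match to the motifs searched on both strands, namely TGANTCA (AP-1), TGACNTCA (the CRE and its near variants, of which TGACGTCA is the full CRE), its first part TGACG, GCGTGGGCG and GCGGGGGCG (Egr sites), and the CArG box, the core of a serum response element. TGACNTCA includes TGACGTCA, and TGACG lies within TGACGTCA.
Fos, chr12:85473640-85473939, plus strand: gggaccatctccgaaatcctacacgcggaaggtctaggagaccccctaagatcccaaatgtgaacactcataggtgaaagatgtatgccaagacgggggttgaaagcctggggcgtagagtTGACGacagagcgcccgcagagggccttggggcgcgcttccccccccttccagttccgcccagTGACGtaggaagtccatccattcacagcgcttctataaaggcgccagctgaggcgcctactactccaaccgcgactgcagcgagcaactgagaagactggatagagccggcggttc
Fosb, chr7:19309996-19310295, minus strand: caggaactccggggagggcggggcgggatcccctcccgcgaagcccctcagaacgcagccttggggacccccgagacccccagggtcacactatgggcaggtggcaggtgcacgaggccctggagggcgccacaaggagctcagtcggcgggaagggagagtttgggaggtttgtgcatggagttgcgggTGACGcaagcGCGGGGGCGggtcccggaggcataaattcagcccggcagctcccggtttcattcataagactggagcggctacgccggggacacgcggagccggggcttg
Jun, chr4:95052173-95052472, minus strand: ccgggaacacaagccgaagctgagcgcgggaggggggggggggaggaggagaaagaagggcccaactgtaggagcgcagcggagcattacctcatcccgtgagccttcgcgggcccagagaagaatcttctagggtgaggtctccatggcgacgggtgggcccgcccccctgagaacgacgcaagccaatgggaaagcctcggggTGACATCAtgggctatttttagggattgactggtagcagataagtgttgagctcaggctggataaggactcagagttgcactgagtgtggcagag
Egr2, chr10:67537619-67537918, plus strand: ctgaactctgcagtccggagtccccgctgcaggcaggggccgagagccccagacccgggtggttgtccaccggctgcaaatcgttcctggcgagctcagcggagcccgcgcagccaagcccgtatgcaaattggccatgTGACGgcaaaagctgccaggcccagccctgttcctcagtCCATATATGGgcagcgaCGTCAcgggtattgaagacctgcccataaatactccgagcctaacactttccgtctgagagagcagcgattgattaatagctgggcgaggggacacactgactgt

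The Fos window held TGACG at 66 and 129 bases before the start. The serum response element for which Fos is best known lies upstream of this window. Fosb held TGACG at 60 and the Egr motif GCGGGGGCG at 50 bases before its start. Jun held the variant TGACATCA at 45 bases before its start, a form of the site through which AP-1 is known to act on the Jun gene itself. The Egr2 window shown is 1 of 5 annotated for that gene, of which 4 held a CArG box, and is the first by position of 3 overlapping windows that hold the same one. That box, CCATATATGG, lies 72 bases before the start, with TGACG at 111 and, on the other strand, at 55 bases. Of the others, Fosl2 held GCGGGGGCG at 79 bases and Junb held TGACG at 106 bases before the start, while none of these motifs was found in the Jund window. Among all 32851 windows of this length, 20.8% held TGACG, 8.83% TGACNTCA, 7.81% TGANTCA, 2.91% GCGGGGGCG, 1.79% TGACGTCA, 1.63% a CArG box and 0.612% GCGTGGGCG. A match describes the letters and is not a measured binding site, and TGACG alone is common.

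Most of the Fos, Jun and Egr genes were strongly detected in both sorts. The array gives a log2 signal per cluster, which depends on the probes as well as on the RNA, so levels were placed by percentile among the genes of the same array and are not amounts of RNA. A log2 signal of 8.01, the median over genes of the mean of both arrays, served as the floor above which a gene was called expressed, and 9 of the 10 members lay above it on both arrays. On each array 5 members were in the top 10% of genes by signal (Fos, Fosb, Jun, Jund and Egr1) and 7 were in the top 25%, adding Fosl2 and Egr2. The median percentile of the 10 members stood at 87.2 in Adam19-/- cells and 88.4 in Adam19+/+ cells.

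**Figure D1:**
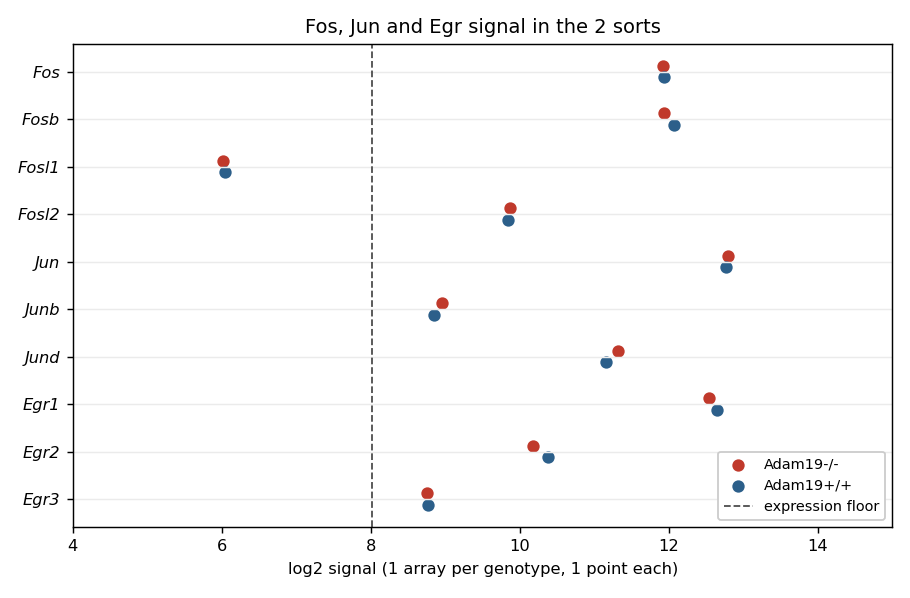
Log2 signal of each Fos, Jun and Egr gene (x axis) in the Adam19-/- sort (red) and the Adam19+/+ sort (blue), 1 array each, with the expression floor of 8.01 as a dashed line. The 2 points of each gene lie close together, and Fosl1 is the member below the floor.

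Fos, the founding member of its family, had a log2 signal of 11.92 in Adam19-/- cells and 11.94 in Adam19+/+ cells, at percentiles 96.9 and 97.1. Fosb, which like Fos is induced rapidly and fades quickly, had 11.94 in Adam19-/- cells and 12.07 in Adam19+/+ cells. Fosl2, a slower relative also called Fra-2, had 9.86 in Adam19-/- cells and 9.84 in Adam19+/+ cells, near percentile 76. Fosl1, or Fra-1, stood apart at the low end, with 6.01 in Adam19-/- cells and 6.04 in Adam19+/+ cells, at percentiles 25.6 and 25.7. The family thus ranged from near the top of the array to the lower part of it, in the same order on both arrays, with Fosb highest and Fosl1 lowest.

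Jun, the main partner of Fos in AP-1, had the highest signal of the set, 12.79 in Adam19-/- cells and 12.77 in Adam19+/+ cells. It lay at percentiles 99.3 and 99.2, and 144 genes in Adam19-/- cells and 156 in Adam19+/+ cells had a brighter cluster. Jund, the family member that many cells express without a stimulus, had 11.31 in Adam19-/- cells and 11.15 in Adam19+/+ cells, at percentiles 93.6 and 92.5. Junb, an inducible member that often opposes Jun, was dimmer, at 8.95 in Adam19-/- cells and 8.85 in Adam19+/+ cells, or percentiles 62.4 and 61.7.

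Egr1, which responds to serum and mechanical stimuli, was nearly as bright as Jun, with 12.54 in Adam19-/- cells and 12.64 in Adam19+/+ cells, at percentiles 98.8 and 99.0. Egr2 had 10.18 in Adam19-/- cells and 10.38 in Adam19+/+ cells, at percentiles 80.8 and 84.3. Egr3, often induced after Egr1, had 8.75 in Adam19-/- cells and 8.77 in Adam19+/+ cells, at percentiles 59.3 and 60.5. The order of the 3 genes was the same on both arrays.

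The set as a whole differed little between the genotypes, with differences on both sides of 0. Each difference is the Adam19-/- log2 signal less the Adam19+/+ one, and with 1 array per genotype it is a difference between 2 samples, with no replicate, standard error or test. Of the 10 members, 4 were higher and 6 lower in Adam19-/- cells, or 2 higher and 8 lower with each array centred on the median of all genes. Their median was -0.02 and their range -0.21 to 0.16. Over all 19938 genes, 10303 were higher, 6808 lower and 2827 exactly equal, with a median of 0.01, and over the 10122 genes above the floor on at least 1 array the median was 0.04. The median size of a difference, whatever its sign, was 0.059 among the members and 0.068 among all genes.

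Jund was the member at least 1.1-fold higher in Adam19-/- cells, 1 of 10, where 17.2% of all genes were. Egr2 was the member at least 1.1-fold lower, 1 of 10, where 8.26% of all genes were. Above the floor the background was 19.1% higher and 5.45% lower, against 1 of 9 members each way. No member reached 1.5-fold in either direction, which 0.211% of all genes did, or 2-fold, which 0.0201% did. These shares of the members are near the background. When each array was centred on the median of all genes, 0 of the 10 members were 1.1-fold higher and 3 lower (Egr2, Fosb and Egr1). With that centring 2121 of all 19938 genes were at least 1.1-fold higher and 2826 lower. The part of all 1.1-fold calls that were higher was then 42.9% in place of 67.6%.

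**Figure D2:**
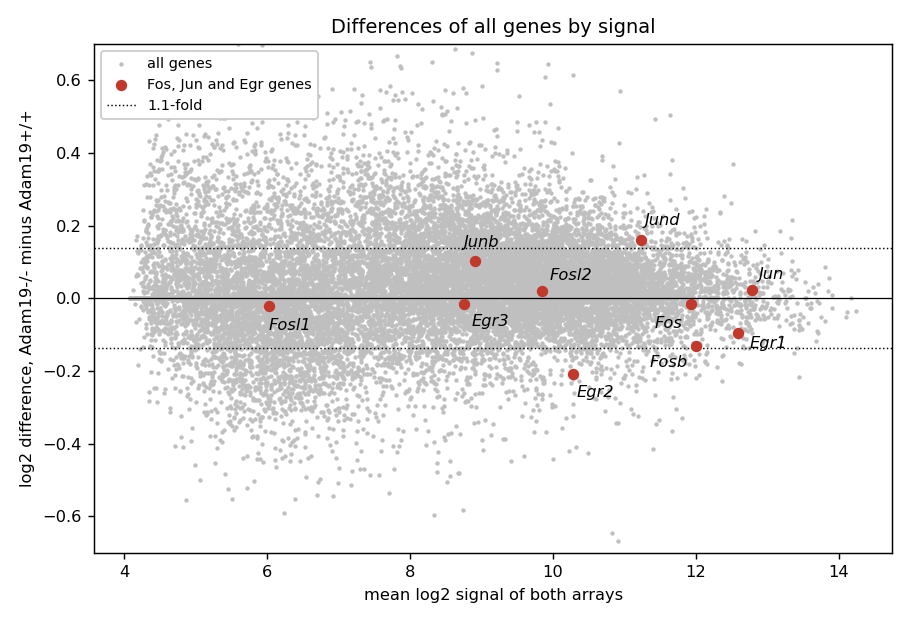
Log2 difference, Adam19-/- minus Adam19+/+ (y axis), against the mean log2 signal of both arrays (x axis) for all genes (grey) and the 10 Fos, Jun and Egr genes (red), with dotted lines at 1.1-fold. The axis ends at 0.7 and leaves out 15 genes with larger differences. Jund lies above the upper line and Egr2 below the lower one.

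The 3 Jun genes were all higher in Adam19-/- cells by small amounts, except that the sign of Jun turned when the arrays were centred. Jund was higher by 0.16, or 1.12-fold, the value ranked 1457 from the highest among the 10122 genes above the floor. Junb was higher by 0.10, or 1.07-fold, and Jun by 0.02, or 1.02-fold. With the arrays centred on the median of all genes the difference of Jun was -0.03, so a direction cannot be given for it. Summed on the linear scale, the family's signal in Adam19-/- cells was 1.04 times that in Adam19+/+ cells.

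The 3 Egr genes all had lower signals in Adam19-/- cells, also with centred or quantile-normalised arrays. Egr2 differed by -0.21, or 1.15-fold lower, the largest difference in the set. Among genes above the floor on at least 1 array, 235 had a lower value, which put Egr2 at percentile 2.3 and just outside the central 95% of those differences, from -0.20 to 0.30. Among all 19938 genes it stood at percentile 4.0, inside the central 95% from -0.25 to 0.33. The difference of Egr1 was -0.10, or 1.07-fold lower, and that of Egr3 -0.02. The family's summed linear signal in Adam19-/- cells was 0.927 times that in Adam19+/+ cells. The differences of Jund and Egr2, the ends of the set, lay 0.37 apart.

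In the Fos family, 3 of the 4 differences were 0.02 in size. Fosb differed by -0.13, or 1.09-fold lower, just inside the 1.1-fold line. Fos and Fosl1 each differed by -0.02 and Fosl2 by 0.02. The direction of Fosl2 turned when the arrays were centred and when they were quantile-normalised, and that of Fosl1 turned under quantile normalisation. The family's summed linear signal in Adam19-/- cells was 0.956 times that in Adam19+/+ cells.

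How far a difference between the arrays depends on the cluster read can be gauged from genes with several clusters. In 583 genes with at least 2 clusters above the floor, the differences given by the 2 brightest clusters lay a median of 0.05 apart, with a 95th percentile of 0.24. As deposited, all 10 members' differences were smaller in size than that 95th percentile, but with centred arrays Egr2, at -0.26, was not. The gap carries the noise of 2 differences, so a single difference below it is not thereby within the noise. This gap holds no variation between embryos or sorts, which was not measured.

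Many other immediate early genes were bright too, and their differences also lay on both sides of 0. Their median percentile stood at 76.3 in Adam19-/- cells and 78.7 in Adam19+/+ cells. Of 34 such genes measured, 29 were above the floor on at least 1 array, and 12 in Adam19-/- cells and 13 in Adam19+/+ cells were in the top 10% of signal. Their differences had a median of -0.04, and 14 were higher, 19 lower and 1 equal, or 8 higher and 26 lower with centred and 12 and 22 with quantile-normalised arrays. At the 1.1-fold line 2 were higher and 7 lower, where 17.2% and 8.26% of all genes were. The largest differences above the floor were those of Ppp1r15a at -0.37, Arc at 0.31, Ier2 at 0.22 and Gadd45b at -0.20. Ppp1r15a, a phosphatase subunit of the stress response, had 9.55 in Adam19-/- cells and 9.92 in Adam19+/+ cells. Arc, a synaptic gene induced by activity in neurons, had 8.03 in Adam19-/- cells and 7.73 in Adam19+/+ cells and passed the floor on the Adam19-/- array alone.

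Among the brightest of these genes, chosen after their values were seen, the matricellular genes Ccn1 and Ccn2 were at 12.98 and 12.86 in Adam19-/- cells, against 13.03 and 12.98 in Adam19+/+ cells. Dusp1, a phosphatase that shuts off MAP kinases, was at 12.45 in Adam19-/- cells and 12.41 in Adam19+/+ cells. Nr4a1, an orphan nuclear receptor induced with Fos, was at 11.58 in Adam19-/- cells and 11.69 in Adam19+/+ cells. Some members of the list were dim on both arrays, such as Npas4, a neuronal activity gene, at 6.30 in Adam19-/- cells and 6.46 in Adam19+/+ cells.

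**Figure D3:**
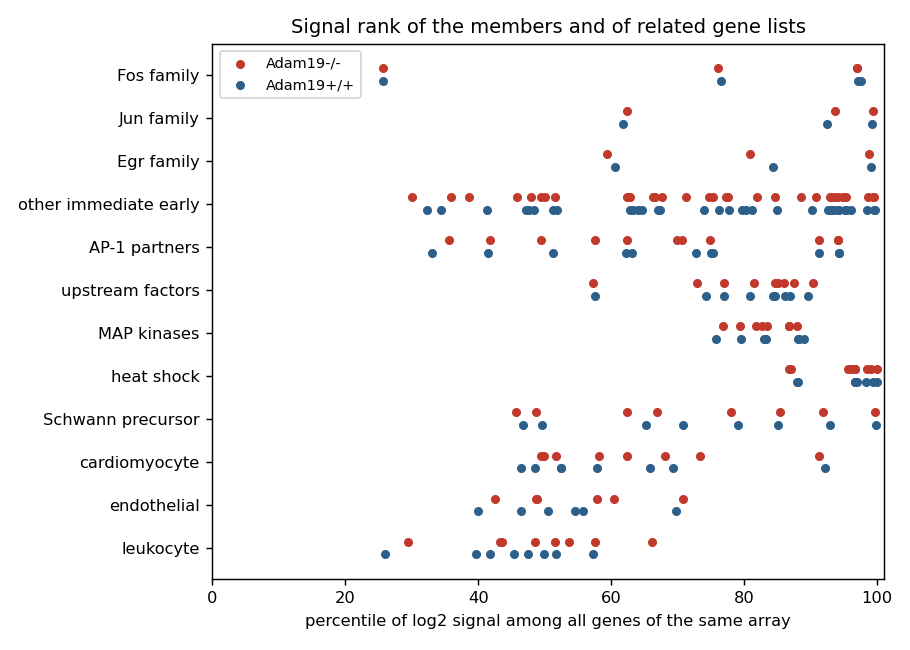
Percentile of log2 signal among all genes of the same array (x axis) for each gene of the lists at left, in the Adam19-/- sort (red) and the Adam19+/+ sort (blue). Of the Fos, Jun and Egr genes 5 lie above the 90th percentile on each array, as do 7 of 9 heat shock genes, while the leukocyte and endothelial markers lie below the 75th. Of the cardiomyocyte markers 1, Tnnt2, lies above the 90th on each array.

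Heat shock genes, the other class often raised by dissociation, were bright in both sorts. The list also holds chaperones that cells make without stress, such as Hspa8, so a high signal does not show induction. All 9 measured were above the floor and 7 were in the top 10% on each array. Those outside it were Hsph1, at percentiles 86.7 in Adam19-/- cells and 87.9 in Adam19+/+ cells, and Dnajb1, at 87.0 and 88.1. Their differences ran from -0.22 to 0.04 around a median of -0.07, and 8 of 9 were lower, or 9 with centred and 7 with quantile-normalised arrays. Of the 9, 1 was at least 1.1-fold lower, which is near the 8.26% of all genes. Dnaja1, a co-chaperone, differed by -0.22, Hspe1, a mitochondrial chaperonin, by -0.13, and Hsph1 and Hsp90aa1, cytosolic chaperones, by -0.08 each. Hspa1a, a stress-induced HSP70 gene named after its value was seen, had 12.39 in Adam19-/- cells and 12.35 in Adam19+/+ cells.

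The factors and kinases upstream of the set were expressed above the floor on both arrays. Of the 9 serum response and CREB factors, 7 were higher and 2 lower, or 6 and 3 with centred arrays. The median was 0.07, and 2 were at least 1.1-fold higher and 1 lower, near the 17.2% and 8.26% of all genes. Srf, which encodes serum response factor, differed by -0.15, with 10.44 in Adam19-/- cells and 10.59 in Adam19+/+ cells. Its partner genes Elk1 and Elk3 differed by 0.16 and 0.15, and Creb1 by 0.11. Of 8 MAP kinase pathway genes measured, 4 were higher and 4 lower around a median of 0.00, or 1 and 7 with centred and 2 and 6 with quantile-normalised arrays. The largest differences there were those of Mapk14, the p38 alpha kinase, at -0.16 and of Mapk7, or ERK5, at 0.11. Next came Map2k4 at -0.09 and Mapk8, or JNK1, at -0.05.

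Partners that can pair with Fos or Jun proteins, or that belong to the related MAF group, had a median difference of 0.00 over 11 measured genes, of which 5 were higher and 5 lower, or 2 and 9 with centred and 3 and 8 with quantile-normalised arrays. They ranged from -0.26 to 0.18, and 1 was at least 1.1-fold higher and 3 lower, beside 17.2% and 8.26% of all genes. Jdp2, a repressor that pairs with Jun, differed by -0.26, being at 8.63 in Adam19-/- cells and 8.89 in Adam19+/+ cells. Mafk, a small MAF protein, differed by -0.25, Atf4, a factor of the integrated stress response, by -0.14 and Maff by -0.09. Atf3, itself an immediate early gene counted in both lists, was at 11.39 in Adam19-/- cells and 11.41 in Adam19+/+ cells. The Egr corepressor genes Nab1 and Nab2 differed by 0.02 and 0.10, and the relative Egr4 was dim and equal in both, at 6.49.

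Genes known as AP-1 targets did not share a direction. Of 12 measured, 5 were above the floor. In all 6 were higher and 5 lower around a median of 0.02, or 5 and 7 with centred arrays, and 2 each way reached 1.1-fold, beside 17.2% of all genes higher and 8.26% lower. Ccl2, a chemokine, differed by -0.45, with 8.33 in Adam19-/- cells and 8.78 in Adam19+/+ cells. Timp1, a metalloproteinase inhibitor, differed by 0.27, the hyaluronan receptor gene Cd44 by 0.15 and Hmox1, or heme oxygenase, by -0.13. The collagenase and stromelysin genes Mmp13 and Mmp3, named after their values were seen, were dim, at 5.07 and 5.43 in Adam19-/- cells and 5.02 and 5.43 in Adam19+/+ cells.

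**Figure D4:**
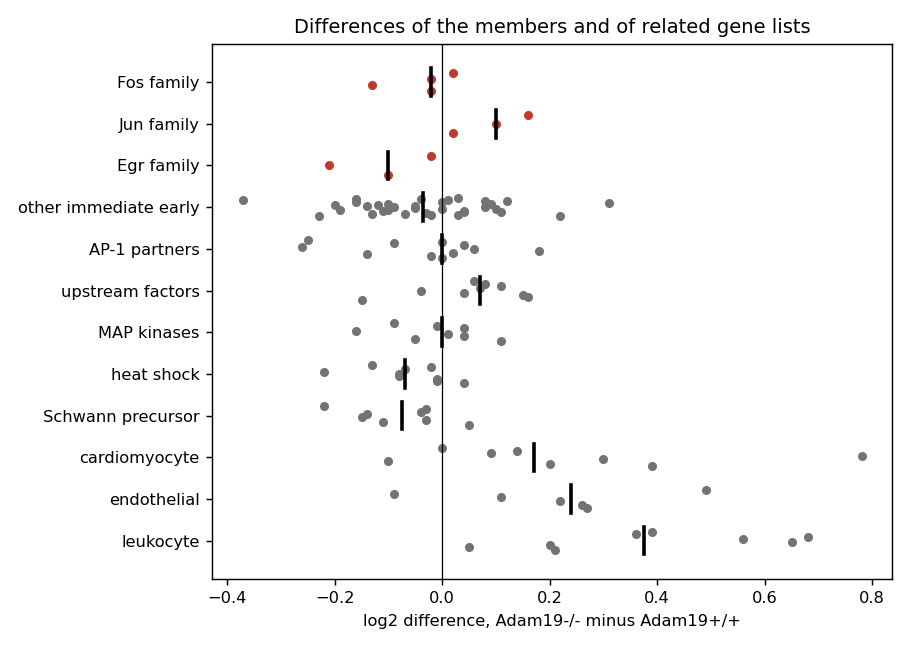
Log2 difference, Adam19-/- minus Adam19+/+ (x axis), of each gene in the Fos, Jun and Egr families (red) and in related lists and cell type markers (grey), with a black bar at each list's median. The 3 Jun genes lie right of 0 and the 3 Egr genes left of it, though Jun moves left of 0 when the arrays are centred on the median of all genes. All 8 leukocyte markers lie right of 0, or 7 with centred arrays.

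Egr2 was set beside genes of the Schwann lineage, which it serves. Of 8 Schwann cell precursor markers measured, 7 were lower in Adam19-/- cells and 1 was higher, also with centred or quantile-normalised arrays. Their median was -0.07, and 3 of 8 were at least 1.1-fold lower, where 8.26% of all genes and 5.45% of those above the floor were. Of the 8 markers, 6 were above the floor on both arrays and the rest on neither. The 8 ranged from Dhh, a hedgehog ligand of glia, at -0.22 to Sox10, a factor of crest and glia, at 0.05. The sum of their linear signals in Adam19-/- cells was 0.92 times that in Adam19+/+ cells, and none was at the array's lowest value. Fabp7, a fatty acid binding protein of glia and the brightest of them, had 13.30 in Adam19-/- cells and 13.45 in Adam19+/+ cells. Of 4 genes that Egr2 acts on in Schwann cells, 3 were lower, or 4 with centred arrays. At least 1.1-fold lower was 1 of the 4, beside 8.26% of all genes. The median of the 4 was -0.10, with Mbp, a myelin protein, at -0.15, Mag, a myelin glycoprotein, at -0.07 and the peripheral myelin gene Pmp22 at 0.03. Gjb1, also lower, was below the floor, at 5.69 in Adam19-/- cells and 5.81 in Adam19+/+ cells. The linear signals of these 4 genes in Adam19-/- cells summed to 1.005 times those in Adam19+/+ cells. In sorted bulk RNA fewer cells of a type and less RNA per cell cannot be told apart, and the part of glial cells in the Egr2 difference was not tested.

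The sorts also differed in features outside the set. Adam19, the gene that was deleted, had 9.77 in Adam19-/- cells and 11.62 in Adam19+/+ cells. Y-linked Uty had 7.61 and Kdm5d 7.65 in Adam19-/- cells, against 9.03 and 8.82 in Adam19+/+ cells. Xist, which is transcribed from the inactive X of females, was bright in both, at 11.14 in Adam19-/- cells and 11.25 in Adam19+/+ cells. The part of embryo sex in the members' values was not tested. All 8 leukocyte markers measured, or 7 with centred arrays, were higher in Adam19-/- cells. The differences ran from 0.05 for Cd68 to 0.68 for Laptm5, with log2 signals of 6.26 to 9.21 in Adam19-/- cells and 6.05 to 8.53 in Adam19+/+ cells. Their linear signals added up to 2252 in Adam19-/- cells and 1649 in Adam19+/+ cells. Cardiomyocyte markers were higher in 6 of 8, between Tnnt2 at -0.10 and Myl7 at 0.78, and summed to 5252 in Adam19-/- cells, against 4841 in Adam19+/+ cells. Endothelial markers were higher in 5 of 6, between Emcn at -0.09 and Nfatc1 at 0.49, and summed to 2233 in Adam19-/- cells, against 1942 in Adam19+/+ cells. Erythroid markers were higher in 3 of 3, between Alas2 at 0.09 and Hba-x at 0.36, and summed to 2768 in Adam19-/- cells, against 2263 in Adam19+/+ cells. None of these markers was at the array's lowest value of 4.09. Leukocytes, endothelial cells and cardiomyocytes can express Fos, Jun and Egr genes too, and their part in the members' values was not tested.

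The crest forms smooth muscle, outflow mesenchyme and autonomic neurons in the heart, and the markers of these measured were above the floor on both arrays. They do not show the origin of the cells. The smooth muscle genes Acta2, Tagln, Myh11, Cnn1 and Myocd had log2 signals of 10.71 to 13.62 in Adam19-/- cells and 10.79 to 13.74 in Adam19+/+ cells, and all 5 were lower in Adam19-/- cells, by 0.06 to 0.15. The outflow mesenchyme genes lay between 9.45 and 13.34 in Adam19-/- cells and between 9.05 and 13.48 in Adam19+/+ cells, with Sox9 differing by 0.57 and Eln by -0.14. The autonomic neuron genes Phox2a, Th and Dbh were all higher in Adam19-/- cells, by 0.18 to 0.46, also with centred or quantile-normalised arrays. They were between 9.88 and 11.14 in Adam19-/- cells and between 9.58 and 10.71 in Adam19+/+ cells. The sort therefore mixed several cell types, and which of them carried the Fos, Jun and Egr RNA was not measured.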

How the data were processed

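RNA of 2 sorted samples was measured on Affymetrix Mouse Gene 1.0 ST arrays. The authors deposited log2 signals per transcript cluster, 28853 clusters in 1 column per sample. Nothing on background correction, normalisation, probe summary or log base is given in the sources used here. The highest value stands for 23484 as log2, within the 65535 of a 16-bit scanner, and for 2.02e+06 as a natural log, so the base was taken to be 2. The deposited log2 values were used as they stand, and the arrays correlated with Pearson's r = 0.998 across clusters.

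Of the clusters, 21789 had 1 gene symbol in the platform annotation of 2016, 1621 several and 5443 none listed here. Only the first were used, and 21698 matched the RefSeq table of GRCm38.p6 by Entrez identifier. The brightest cluster stood for a gene, which gave 19938 genes. Promoter windows came from RefSeq, and the motifs TGACG and TGACNTCA were added after sequences had been seen.

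With 1 array per genotype no test was possible, so folds of 1.1, 1.5 and 2 were counted beside the share of all genes. The 1.1-fold line is 0.138 in log2. The number of arrays limits the precision. The 10 genes and the lists were chosen with earlier results of these data known. All members are named, with up to 4 genes of each other list that had the largest differences above the floor, or the highest and lowest for cell type markers, and some whose choice followed their values. Some list genes are not analysed here. Counting steps were tested on simulated data. Alternatives were quantile normalisation, centring, 32 added to the linear signal, the mean of a gene's clusters, clusters with several symbols, and higher floors. Python 3.11.15 was used with numpy 2.4.6, pandas 2.3.3 and matplotlib 3.10.9.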

Additional observations from a re-analysis of the deposited data

How the results depend on the processing

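Of 86 values recomputed under the alternatives, 84 kept their direction where they had passed 1.1-fold and moved by less than 0.05 in log2, 5 percentile points, or 1.5 times for counts. The other 2 both came from centring each array on the median of all genes. There 0 members were at least 1.1-fold higher, in place of 1, and 3 were lower, in place of 1, with Egr2 at -0.256, Fosb at -0.179 and Egr1 at -0.145. Of all 19938 genes, 2121 were higher and 2826 lower by that fold with centred arrays. By its construction that centring lowers every difference by 0.049, just within the 0.05 allowed, which is the median gap between clusters of a gene. Members higher and lower numbered 2 and 8 there, and 4 and 6 under the other 4 alternatives that rescale or choose clusters. Fosl2 and Jun changed sign under centring, and Fosl1 and Fosl2 under quantile normalisation, all with differences within 0.05 of 0. The members' median ran from -0.065 to -0.014. No second cluster or cluster with several symbols held a member, so those alternatives left the members' log2 signals as they were. Quantile normalisation, centring and the added 32 keep the order of clusters within an array. They therefore left the members' median percentiles as they were too. Values held fixed in these ways are counted among the 84, so that count overstates how far the results were tested. No paired analysis was possible because there is 1 array per genotype, and for the same reason no array could be left out. The number of arrays limits the precision, and differences of this size cannot be set against variation between sorts.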
